A study of Mus musculus with 16 samples.

Results

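A set of 10 genes whose RNA was lower in nickel-treated mouse embryonic stem cells at every dose and on both days was described across the study's 8 groups: Aass, Acss1, Adgrd1, Cd80, Cemip2, Crmp1, Glipr2, Igfbp4, Inpp5d and Neat1. They are 10 of the 26239 genes listed in each of the authors' 6 deposited tables, 1 table per dose and day. The genes were selected on the authors' own values, a negative log2 fold change with an adjusted p-value under 0.05 in all 6 nickel-against-control comparisons. Their fold changes and p-values are therefore given as a description and not as a test. In all, 40 genes met that rule and 42 met its mirror image, so 30 further genes were lowered throughout, and they appear here only for comparison.

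All groups shared E14Tg2A, an established mouse embryonic stem cell line named in the labels, and no group is labelled with a changed genotype. The cells were grown in serum-containing DMEM with LIF, the cytokine that holds such cells in the undifferentiated state. The nickel groups received NiCl2, a soluble nickel salt, at 100, 150 or 200 µM, given afresh after each passage, and RNA was taken on day 4 or day 6. Untreated cells of the same day were the controls. Each of the 8 groups had 2 mRNA sequencing libraries, 16 in all. Nothing in the labels says whether the pair of a group came from separate cultures, so the spread behind the authors' p-values may be technical. All 3 doses of a day share that day's control, and the 3 comparisons of a day are not independent of each other.

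The 10 genes have no single pathway in common. Igfbp4 encodes a secreted protein that binds insulin-like growth factors and keeps them from their receptor. Cd80 encodes a B7 ligand that antigen-presenting cells show to CD28 and CTLA-4 on T cells. Inpp5d encodes SHIP1, a phosphatase that removes the 5-phosphate from the lipid product of PI3 kinase, and a shorter form, s-SHIP, is known from mouse embryonic stem cells. Aass and Acss1 encode mitochondrial enzymes, which start lysine breakdown and make acetyl-CoA from acetate. Adgrd1 encodes an adhesion G protein-coupled receptor, Cemip2 a cell-surface protein of hyaluronan breakdown, Crmp1 a cytosolic partner of semaphorin signalling and Glipr2 a Golgi-associated protein of the CAP superfamily. Neat1 is a long non-coding RNA, the scaffold around which nuclear paraspeckles assemble.

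The stretches of DNA before 3 of these genes are shown because Cd80 and Aass had the deepest falls at 200 µM on day 6 and Igfbp4 had a TATA motif near its start. Each is the 250 bases before the RefSeq start site in the GRCm38.p6 promoter table, written 5′ to 3′ on the gene's strand, and each start equals the start in the authors' tables. Capitals mark a motif match, TGANTCA for Cd80 and TATAAA for Igfbp4, and the Aass stretch held none of the motifs searched. TGANTCA was searched as AP-1 with any base at N, and the Cd80 match reads TGATTCA. The windows lie at chr16:38458683-38458932 on the plus strand for Cd80, chr6:23132987-23133236 on the minus strand for Aass and chr11:99040994-99041243 on the plus strand for Igfbp4.
Cd80: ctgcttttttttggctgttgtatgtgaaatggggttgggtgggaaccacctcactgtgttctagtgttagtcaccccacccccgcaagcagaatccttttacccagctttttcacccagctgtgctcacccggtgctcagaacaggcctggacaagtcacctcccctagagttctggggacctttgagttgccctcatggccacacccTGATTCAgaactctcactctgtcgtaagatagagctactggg
Aass: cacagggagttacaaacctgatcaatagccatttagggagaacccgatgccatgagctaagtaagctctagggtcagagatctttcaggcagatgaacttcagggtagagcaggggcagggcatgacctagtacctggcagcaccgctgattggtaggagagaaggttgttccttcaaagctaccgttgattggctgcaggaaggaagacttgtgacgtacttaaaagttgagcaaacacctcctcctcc
Igfbp4: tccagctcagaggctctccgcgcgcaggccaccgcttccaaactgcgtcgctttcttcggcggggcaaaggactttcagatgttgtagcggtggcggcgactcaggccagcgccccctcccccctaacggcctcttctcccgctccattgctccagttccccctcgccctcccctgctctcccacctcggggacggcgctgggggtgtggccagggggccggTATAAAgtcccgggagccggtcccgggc
The Igfbp4 match starts at position -28 from the start site and the Cd80 AP-1 match at position -42.

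Promoter windows, 250 bases before to 50 after the start, were found in the RefSeq table for 7 of the 10 genes. These windows were searched on both strands for 9 motifs, and each count stands beside the share of all 32851 promoter windows in the table that hold the same letters. The GC box, with the letters GGGCGG, was in the windows of Acss1, Glipr2, Crmp1 and Aass, 4 of 7, and in 35.7% of all windows. The core of the HIF motif, read as ACGTG, was in the Crmp1 window alone, 1 of 7, and in 19.6% of all. The TATA motif was in the windows of Igfbp4 and Cd80, 2 of 7, against 13.6% of all, and the Cd80 match began at position 5, past its start. The AP-1 motif, searched with any base at its centre, was in 1 of 7, Cd80, against 7.81% of all. The remaining motifs were in 0 of 7 windows. Among them were the ATF4 half-site, spelled TGATGNAA, with matches in 3.97% of all windows, the cyclic AMP response element, spelled TGACGTCA, with matches in 1.79%, and the STAT motif, spelled TTCNNNGAA, with matches in 8.30%. They were also the E-box, spelled CACGTG and thus overlapping the HIF letters, with matches in 7.15% of all windows, and the octamer, spelled ATGCAAAT, with matches in 1.74%. No motif was in more than 4 of the 7 windows. The number of CG pairs ranged from 3 in the Cd80 window to 41 in the Crmp1 window, with 27 for Igfbp4, against a median of 7 over all windows. A second Crmp1 window, for the start at 37245764, was left out of these counts. It held 20 CG pairs and the GC box but no HIF core. A match is a description of letters and not a site of binding.

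Levels are given in RPKM, a read count divided by transcript length and by the reads of the library, for which the tables hold 1 value per group and no value per library. In untreated cells the mean of both days ranged from 1.80 RPKM for Adgrd1 to 85.8 RPKM for Neat1. Neat1 lay above 96.1% of the genes with any reads and Adgrd1 above 46.3%. Between them stood Igfbp4 at 4.98, Acss1 at 8.98, Cd80 at 10.6, Aass at 13.6, Glipr2 at 26.2, Crmp1 at 27.7, Cemip2 at 35.9 and Inpp5d at 43.6 RPKM. For each of the 10 genes, all 6 nickel groups lay below both control groups. With 1 value per group, no spread over libraries can be set beside the order of the levels. In a bulk sample, fewer cells with a transcript and less of it per cell cannot be told apart.

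**Figure D1:**
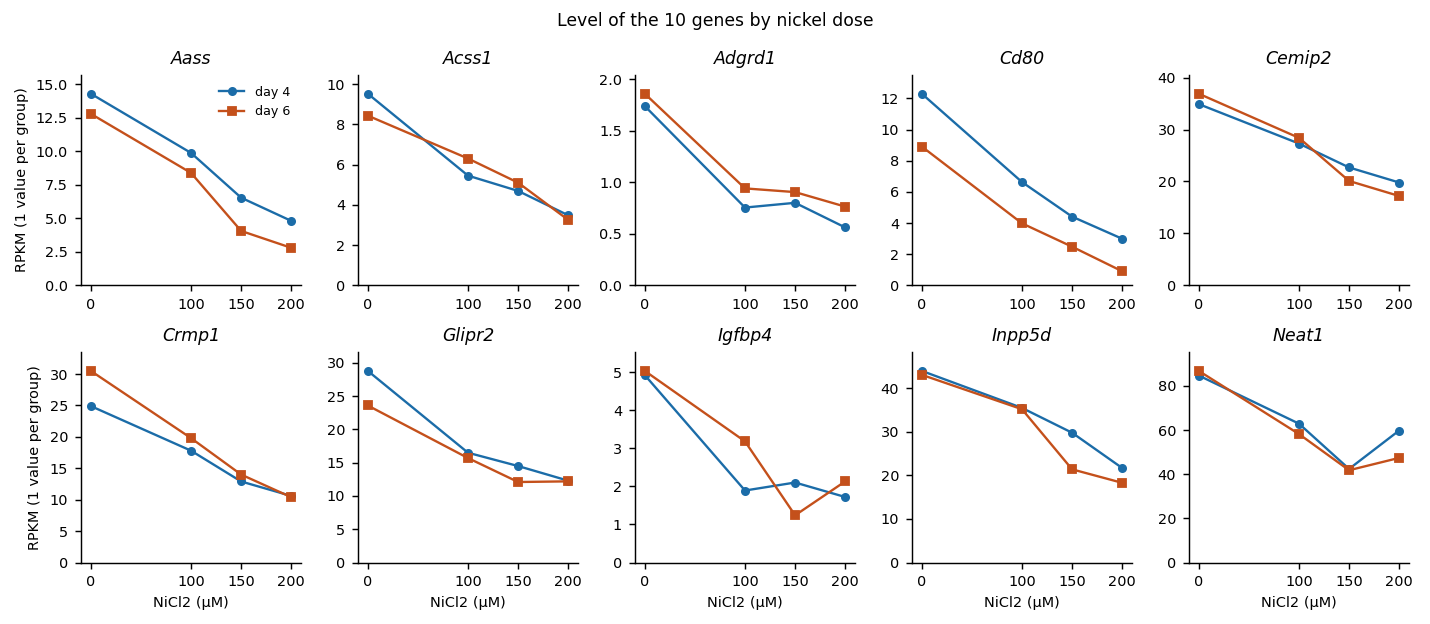
Level of each gene in RPKM (vertical axis, from 0, its own scale per panel) against the NiCl2 dose in µM (horizontal axis), with day 4 as circles and day 6 as squares and 1 value per group. Every nickel value lies under both control values, and Neat1 is the gene whose level is lowest at 150 µM on both days.

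The library depths, recovered from the steps of low RPKM values, came to 34.3 to 76.8 megareads in nickel libraries and 43.5 to 70.8 megareads in control libraries. The thinnest values of the set rest on at most about 460 reads over both libraries (Cd80, 200 µM, day 6) and 490 reads (Adgrd1, 200 µM, day 4). Markers of embryonic stem cells summed to 6562 to 7639 RPKM in nickel groups and 6088 to 6367 RPKM in control groups over 8 genes, and between 2 and 4 of the 8 were higher per comparison. Nanog and Tdgf1 were higher in 6 of 6, while Esrrb was lower at 150 µM on day 4, at 163 RPKM against 191 RPKM in control, and Utf1 at 150 µM on day 6, at 138 RPKM against 185 RPKM. Markers of fibroblasts summed to 6.19 to 10.7 RPKM in nickel groups and 9.48 to 12.8 RPKM in control groups, where only Thy1 was called, lower in 3 of 6. Markers of primitive endoderm summed to 4.55 to 7.80 RPKM in nickel groups and 5.48 to 6.03 RPKM in controls, and those of trophectoderm to 28.1 to 31.1 RPKM and 22.7 to 28.2 RPKM. Gata4 was higher in 3 of 6, and Dab2 was lower at 200 µM on day 6. Krt8 was higher in 3 of 6 and Hand1 at 200 µM on both days, at 0.928 RPKM against 0.139 RPKM on day 6. Tfap2c, at 13.2 to 19.8 RPKM, made up most of the trophectoderm sum. The part of all these markers in the results was not tested, and immune and neural markers stand beside the genes they touch. The share of genes lowered at an adjusted p under 0.05 was 0.462%, 3.32% and 3.77% of those tested at 100, 150 and 200 µM on day 4, and 1.21%, 1.99% and 4.48% on day 6. The share raised was 0.576%, 3.44% and 4.14% on day 4, and 1.62%, 2.36% and 4.99% on day 6. The rule put the set at 10 of 10 lowered in each, which is not read as a result.

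In what follows, ± after a log2 fold change is a standard error implied by the authors' fold change and p-value. A value of -1 means that the level in nickel was 50% of that in control. Percentages of control are ratios of RPKM, which can differ from the authors' fold changes. Over the set, the median level in nickel was 63.2%, 49.7% and 39.6% of control at 100, 150 and 200 µM on day 4, and 66.0%, 48.4% and 41.7% on day 6. RPKM levels under 50% of control were reached by 2, 5 and 8 of the 10 genes on day 4, and by 1, 7 and 8 on day 6. At 150 µM on day 6 the set's median log2 fold change was -0.94, short of -1, beside the median of 48.4% by RPKM. At 200 µM on day 6 the range ran from 10.1% for Cd80 to 54.6% for Neat1. The set's median log2 fold change there was -1.24 in the authors' deposited table, against -1.34 for the other 30 genes lowered throughout and 0.00 for all genes tested.

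**Figure D2:**
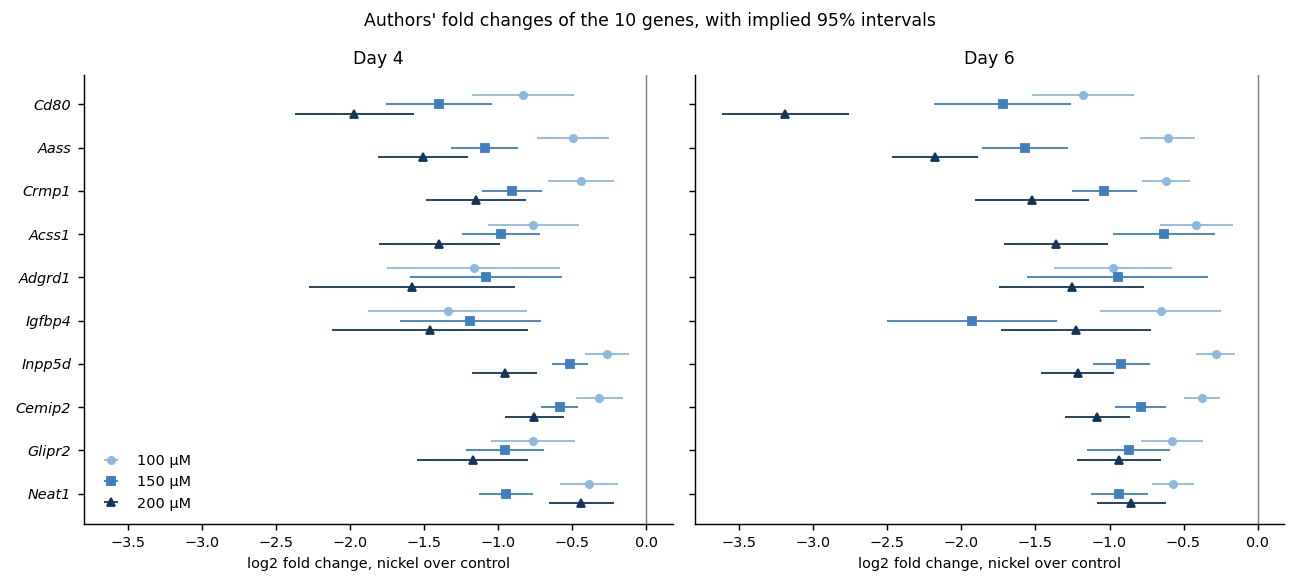
The authors' log2 fold change of nickel over control (horizontal axis) for each gene (rows), day 4 on the left and day 6 on the right, with the dose shown by marker and shade and bars for the implied 95% interval. All 60 values lie under 0, which the choice of genes fixed, and Cd80 at 200 µM on day 6 is farthest out, at -3.19.

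Of the secreted and surface proteins, Igfbp4 had 1.89, 2.10 and 1.72 RPKM at 100, 150 and 200 µM on day 4, against 4.92 RPKM in control. On day 6 it had 3.18, 1.24 and 2.13 RPKM, against 5.03 RPKM. The lowest dose thus already had a level near that of the highest on day 4, while on day 6 the lowest level was at 150 µM. The authors' deposited tables gave log2 fold changes of -1.34 ± 0.27, -1.19 ± 0.24 and -1.46 ± 0.34 on day 4. On day 6 they gave -0.66 ± 0.21, -1.93 ± 0.29 and -1.23 ± 0.26, with adjusted p of 0.0468, 9.0e-09 and 1.0e-04. Igfbp4 lies on chromosome 11 at 99041244 to 99052655 on the plus strand (GRCm38), with 4 exons in its RefSeq transcript NM_010517.

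Calls among other genes of the insulin-like growth factor axis were mostly higher, and Igfbp2, Igfbp3 and Igf1r gave most of these. Of 17 or 18 tested besides Igfbp4, between 1 and 4 were higher per comparison, and at most 1 was lower. Over all genes tested, 0.576% to 4.99% were higher and 0.462% to 4.48% lower per comparison. Igfbp2, a binding protein of the same family, rose at 200 µM to 443 RPKM against 273 RPKM in control on day 4, and to 489 RPKM against 291 RPKM on day 6. Its log2 fold change was 0.76 ± 0.11 and 0.76 ± 0.13 on those days in the authors' deposited tables. Igfbp3 was higher in 4 of 6 comparisons and had 8.59 RPKM at 200 µM on day 6, against 4.71 RPKM in control. Igf1r, the receptor, was also higher in 4 of 6, with 5.55 RPKM at 200 µM on day 6, against 3.41 RPKM. Igf2r, which clears IGF2, was lower at 150 and 200 µM on day 4, with 15.5 RPKM at 200 µM against 21.7 RPKM. Igfbp5 passed in 0 of 6, with an unadjusted p under 0.05 in 1, and stayed at or under 0.164 RPKM in every group. The median log2 fold change of the list lay between -0.23 (150 µM, day 6) and 0.37 (200 µM, day 6), and that of all genes tested from -0.03 to 0.01 over the 6 comparisons.

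Cd80 had 6.63, 4.41 and 2.99 RPKM at 100, 150 and 200 µM on day 4, against 12.3 RPKM in control. It had 3.98, 2.48 and 0.904 RPKM on day 6, against 8.91 RPKM. The level fell with each dose on both days, and from highest to lowest group it spanned 13.6-fold, the widest span of the 10. The control itself was lower on day 6, with a log2 ratio of day 6 over day 4 of -0.47. In the authors' deposited tables the log2 fold changes were -0.83 ± 0.17, -1.40 ± 0.18 and -1.97 ± 0.21 on day 4. The day 6 values were -1.18 ± 0.18, -1.72 ± 0.24 and -3.19 ± 0.22, with adjusted p between 1.6e-44 and 6.3e-09. Cd80 lies on chromosome 16 at 38458933 to 38495958 on the plus strand.

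Cd80 and Inpp5d are best known from blood cells, so markers of these were read beside them. Ptprc, the leukocyte antigen CD45, was between 0 and 0.0358 RPKM, Itgax between 0 and 0.00244 RPKM and Adgre1 between 0 and 0.00204 RPKM. The 10 immune markers together summed to 2.71 to 4.18 RPKM in nickel groups and 3.89 to 5.30 RPKM in control groups, most of it from Cd3e and Cd79a. Cd3e had 1.18, 1.1 and 0.732 RPKM at 100, 150 and 200 µM on day 4, against 1.91 RPKM in control, and 0.777, 1.28 and 0.845 RPKM on day 6, against 1.79 RPKM. Spi1 ranged from 0.0963 to 0.620 RPKM in nickel groups and was at 0.481 and 0.529 RPKM in controls. Of 7 to 9 markers tested, 1 was called in 1 comparison. This was Cd79a, higher at 200 µM on day 6, where 4.99% of all genes were higher. The part of these markers in the Cd80 and Inpp5d results was not tested.

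In the B7 and CD28 families, 9 or 10 genes besides Cd80 were tested. Icosl, the ligand of ICOS, rose in 3 of 6 comparisons and had 10.2 RPKM at 200 µM on day 4, against 5.98 RPKM in control. Cd276, or B7-H3, fell in 4 of 6 and had 8.67 RPKM there, against 14.9 RPKM. Its log2 fold change of -0.72 ± 0.14 in the authors' deposited table stood beside -1.97 for Cd80. Cd86, the other ligand of CD28, was at 0 to 0.0212 RPKM in nickel groups and 0 RPKM in both controls, and passed in 0 of 6. No other gene of the list was called, so at most 1 was higher and 1 lower per comparison. Over all genes tested, 0.576% to 4.99% were higher and 0.462% to 4.48% lower.

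Inpp5d had 35.5, 29.8 and 21.7 RPKM at 100, 150 and 200 µM on day 4, against 44 RPKM in control. It had 35.2, 21.4 and 18.3 RPKM on day 6, against 43.1 RPKM. At 100 µM it kept more of its control level than any other gene of the set, 80.7% on day 4 and 81.7% on day 6. The authors' deposited tables gave log2 fold changes of -0.27 ± 0.08, -0.52 ± 0.06 and -0.96 ± 0.11 on day 4, and -0.28 ± 0.07, -0.92 ± 0.10 and -1.21 ± 0.13 on day 6. The adjusted p of 0.0373 at 100 µM on day 4 was its largest. The value covers 4 listed RefSeq transcripts together, and the tables do not separate s-SHIP from the full-length form. Inpp5d lies on chromosome 1 at 87620312 to 87720510 on the plus strand.

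Among 22 other phosphoinositide phosphatases and class I PI3 kinases tested, at most 1 was called in any comparison. With 0.462% to 4.48% of all genes lower and 0.576% to 4.99% higher per comparison, such counts are near the background. Inppl1, which encodes the related phosphatase SHIP2, had 23.1 RPKM at 200 µM on day 4 against 20.5 RPKM in control, and 25.8 against 22.3 RPKM on day 6, and passed in 0 of 6, with an unadjusted p under 0.05 in 2. Pik3cd, a PI3 kinase catalytic subunit, was lower at 200 µM on day 4, at 3.60 RPKM against 5.81 RPKM. Inpp4b, a 4-phosphatase, was higher at 150 and 200 µM on day 6 from a low level, 0.215 and 0.237 RPKM against 0.0417 RPKM. The median log2 fold change of this list stayed between -0.09 and 0.05 over the 6 comparisons.

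Adgrd1 was the least abundant of the 10. It had 0.755, 0.801 and 0.562 RPKM at 100, 150 and 200 µM on day 4, against 1.74 RPKM in control, and 0.941, 0.905 and 0.764 RPKM on day 6, against 1.86 RPKM. The fall was close to its full size at the lowest dose, and the doses did not differ beyond 2 combined standard errors on either day. The authors' deposited tables gave -1.17 ± 0.30, -1.08 ± 0.26 and -1.58 ± 0.36 on day 4, and -0.98 ± 0.20, -0.95 ± 0.31 and -1.26 ± 0.25 on day 6. Its adjusted p of 0.0479 at 150 µM on day 6 lay just inside the threshold. Adgrd1 lies on chromosome 5 at 129096750 to 129204599 on the plus strand.

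Of the other adhesion receptors, 24 to 27 were tested, and 0 were lower in any comparison by the authors' DESeq2 values, with at most 1 lower at an unadjusted p under 0.05, near a background of 0.462% to 4.48%. At 200 µM 6 of 24 were higher on day 4 and 5 of 27 on day 6, where 4.14% and 4.99% of all genes were higher. Adgrb2 had 4.60 RPKM at 200 µM on day 4 against 2.69 RPKM in control, and 4.64 RPKM against 2.57 RPKM on day 6. Celsr1 and Celsr2, receptors of planar cell polarity, were higher at 200 µM on both days, and Adgra2 at 200 µM on day 6, at 1.11 RPKM against 0.340 RPKM.

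Cemip2 had 27.3, 22.7 and 19.8 RPKM at 100, 150 and 200 µM on day 4, against 34.9 RPKM in control. It had 28.4, 20.1 and 17.2 RPKM on day 6, against 36.9 RPKM. The falls were graded by dose and among the smallest of the set at 100 µM. In the authors' deposited tables they stood at -0.32 ± 0.08, -0.59 ± 0.06 and -0.76 ± 0.10 on the log2 scale on day 4, and -0.37 ± 0.06, -0.79 ± 0.09 and -1.08 ± 0.11 on day 6. Cemip2 lies on chromosome 19 at 21778340 to 21858360 on the plus strand.

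Of 18 or 19 other genes of hyaluronan synthesis, breakdown and binding tested, 0 were lower in any comparison by the authors' DESeq2 values, and at most 1 at an unadjusted p under 0.05. Where 3.77% of all genes were lower and 4.14% higher, at 200 µM on day 4, 0 and 3 of 18 were, and the count lower is near the background. Hyal1, a hyaluronidase, was higher in 3 of 6 and had 8.01 RPKM at 200 µM on day 4, against 5.06 RPKM. Hyal2 was higher there too, at 18.9 RPKM against 13 RPKM, but had 15.4 RPKM against 15.1 RPKM on day 6. Vcan, a hyaluronan-binding proteoglycan, was higher at 150 and 200 µM on day 4. Cemip, the closest relative of Cemip2, stayed at or under 0.304 RPKM in every group and passed in 0 of 6.

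Of the cytosolic and Golgi proteins, Crmp1 had 17.8, 12.9 and 10.6 RPKM at 100, 150 and 200 µM on day 4, against 24.9 RPKM in control. It had 19.8, 14 and 10.4 RPKM on day 6, against 30.5 RPKM. Both days thus ended near one level at 200 µM, from controls that were 0.29 apart on the log2 scale. The authors' deposited tables list log2 fold changes of -0.44 ± 0.11, -0.91 ± 0.10 and -1.15 ± 0.17 on day 4, and -0.62 ± 0.08, -1.03 ± 0.11 and -1.52 ± 0.20 on day 6. Crmp1 lies on chromosome 5 at 37242058 to 37292163 on the plus strand, and 2 RefSeq transcripts with different first exons share its value.

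Crmp1 is best known from developing neurons, and some neural markers moved in the same direction. The 8 neural markers summed to 162 to 219 RPKM in nickel groups and 236 to 249 RPKM in control groups. Stmn2 was lower in 4 of 6 comparisons, with 122 RPKM at 200 µM on day 6 against 195 RPKM, and Neurod1 in 5 of 6, with 5.83 RPKM against 11.5 RPKM. Pax6 was higher in 4 of 6, with 1.08 RPKM against 0.534 RPKM, and Dcx stayed between 0 and 0.000949 RPKM. The part of these markers in the Crmp1 result was not tested.

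In the list of CRMP relatives and class 3 semaphorin signalling, 21 other genes were tested. Dpysl4, a CRMP relative, was higher at 200 µM on both days, at 1.94 RPKM against 0.959 RPKM on day 4 and 2.77 RPKM against 1.09 RPKM on day 6. Dpysl3 was higher at 150 µM on day 4 alone, and Dpysl2 passed in 0 of 6. Dpys, the pyrimidine-degrading enzyme from which the family takes its fold, was lower in 4 of 6 and had 3.28 RPKM at 200 µM on day 6, against 8.24 RPKM. Plxna2, a semaphorin co-receptor, was also lower in 4 of 6, at 0.481 RPKM against 0.953 RPKM there. The list thus held calls in both directions, at most 1 higher and 3 lower per comparison. Among all genes, the shares per comparison were 0.576% to 4.99% higher and 0.462% to 4.48% lower.

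Glipr2 had 16.5, 14.5 and 12.3 RPKM at 100, 150 and 200 µM on day 4, against 28.8 RPKM in control. It had 15.7, 12.1 and 12.2 RPKM on day 6, against 23.6 RPKM. Most of the fall was present at 100 µM, and the higher doses did not differ from it beyond 2 combined standard errors. The authors' deposited tables gave -0.77 ± 0.15, -0.96 ± 0.13 and -1.17 ± 0.19 on day 4, and -0.58 ± 0.11, -0.87 ± 0.14 and -0.93 ± 0.14 on day 6. Glipr2 lies on chromosome 4 at 43957702 to 43979118 on the plus strand. Of 7 to 9 other CAP genes tested, 0 were called in 5 comparisons by the authors' DESeq2 values, and at most 1 in each of these had an unadjusted p under 0.05. Per comparison 0.462% to 4.48% of all genes were lower and 0.576% to 4.99% higher, so 0 in so few is near the background. At 200 µM on day 6 R3hdml was lower, at 0.416 RPKM against 1.65 RPKM, and Crispld2 was higher, at 0.905 RPKM against 0.374 RPKM. Glipr1 was between 0.0248 and 0.530 RPKM in nickel groups and at 0.242 and 0.311 RPKM in controls, and passed in 0 of 6.

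Of the mitochondrial enzymes, Aass had 9.88, 6.54 and 4.81 RPKM at 100, 150 and 200 µM on day 4, against 14.3 RPKM in control. It had 8.39, 4.06 and 2.80 RPKM on day 6, against 12.8 RPKM. Each dose was lower than the one before it by more than 2 combined standard errors on both days. The authors' deposited tables gave -0.50 ± 0.12, -1.09 ± 0.12 and -1.51 ± 0.16 on day 4, and -0.61 ± 0.09, -1.57 ± 0.15 and -2.18 ± 0.15 on day 6. Aass lies on chromosome 6 at 23072173 to 23132986 on the minus strand.

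In the rest of the lysine breakdown route, 13 other genes were tested and 0 were called in any of the 6 comparisons by the authors' DESeq2 values. At an unadjusted p under 0.05, at most 3 were lower and 1 higher per comparison. With 0.462% to 4.48% of all genes lowered per comparison, a count of 0 in 13 is near the background. Aldh7a1, which acts just after Aass, had 27.8 RPKM at 200 µM on day 4 against 30.4 RPKM in control, and 28.9 RPKM against 33.2 RPKM on day 6. Its log2 fold change on day 6 was -0.18 ± 0.13 in the authors' deposited table. Dhtkd1, a later enzyme of the route, had 12.4 RPKM there against 13.8 RPKM. The list's median log2 fold change lay between -0.18 and -0.07 over the 6 comparisons.

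Acss1 had 5.45, 4.69 and 3.48 RPKM at 100, 150 and 200 µM on day 4, against 9.52 RPKM in control. It had 6.30, 5.10 and 3.25 RPKM on day 6, against 8.43 RPKM. The level fell with each dose on both days. The authors' deposited tables gave -0.76 ± 0.16, -0.98 ± 0.13 and -1.40 ± 0.21 on day 4, and -0.41 ± 0.13, -0.63 ± 0.18 and -1.36 ± 0.18 on day 6. Acss1 lies on chromosome 2 at 150618111 to 150668240 on the minus strand. It is the only one of the 10 whose span overlaps another listed gene, E130215H24Rik on the opposite strand, which had 0 to 0.188 RPKM.

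Among genes of acetyl-CoA supply and use, 11 or 12 were tested besides Acss1, of which 0 were lower and up to 3 were higher per comparison by the authors' DESeq2 values, and at most 2 were lower at an unadjusted p under 0.05. At 200 µM on day 6, where 4.99% of all genes were higher and 4.48% lower, these counts were 3 and 0 of 12, and so few genes leave a count of 0 lower near the background. Acss2, the cytosolic and nuclear counterpart of Acss1, was higher at all 3 doses of day 6, at 7.71, 7.44 and 8.85 RPKM against 5.47 RPKM. On day 4 it was called at none, with 7.75, 8.28 and 9.07 RPKM against 7.77 RPKM. The control was thus the lower one on day 6, while the nickel levels of both days were close. Whether the days differed for Acss2 was tested over all genes, and no list gene passed after adjustment. Acacb, which makes malonyl-CoA from acetyl-CoA, was higher in 5 of 6 comparisons, with 4.99 RPKM at 200 µM on day 6 against 2.88 RPKM. Acsf2, an acyl-CoA synthetase, was higher in 3 of 6, with 14.2 RPKM at 200 µM on day 4 against 7.61 RPKM.

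**Figure D3:**
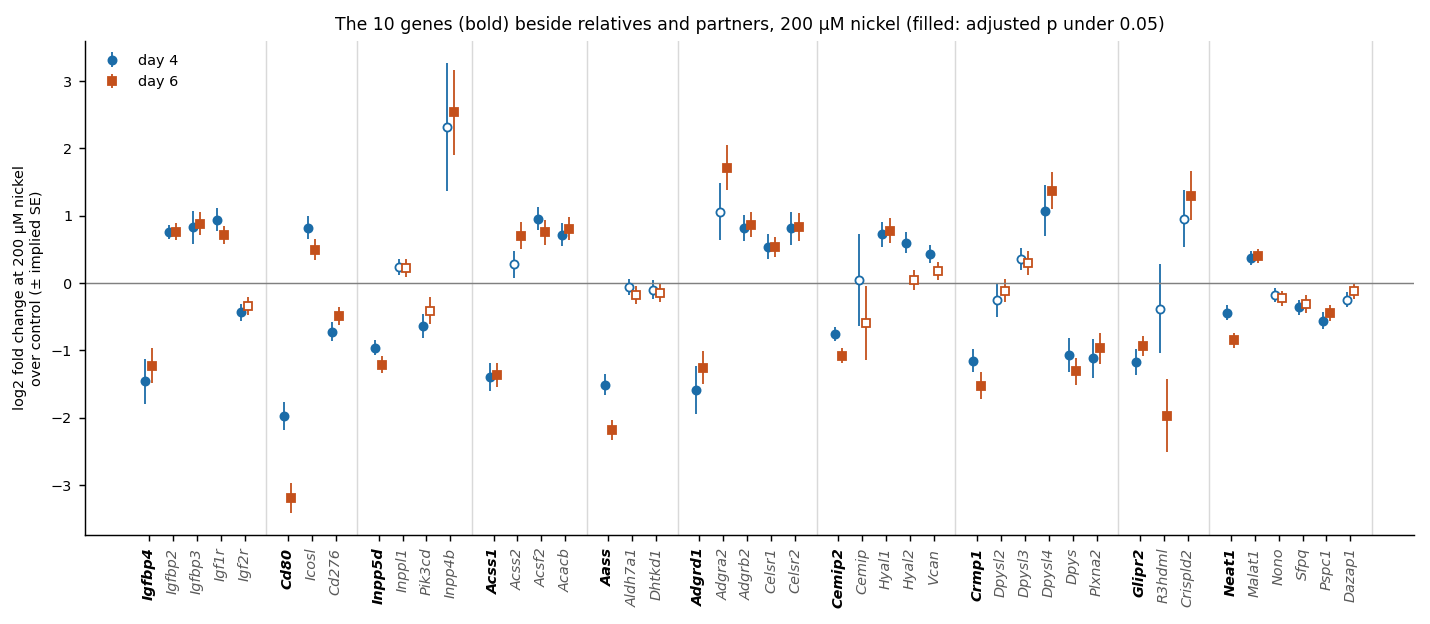
The authors' log2 fold change at 200 µM nickel over control (vertical axis, bars ± 1 implied SE). The 10 genes are bold and named genes of their lists grey, without Cd86, Igfbp5 and Glipr1. Day 4 is shown as circles and day 6 as squares, with filled marks for an adjusted p under 0.05. Up to 4 genes per list were named for having its smallest adjusted p. Igfbp4, Acss1 and Adgrd1 lie under 0 and most of their named relatives above it, while the relatives of Aass, Aldh7a1 and Dhtkd1, are open marks near 0.

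Neat1 had 62.9, 42.4 and 59.8 RPKM at 100, 150 and 200 µM on day 4, against 84.7 RPKM in control. It had 58.2, 41.8 and 47.4 RPKM on day 6, against 86.8 RPKM. Its level was lowest at 150 µM on both days, and on day 4 the level at 200 µM was above that at 150 µM by more than 2 combined standard errors. The authors' deposited tables gave -0.39 ± 0.10, -0.95 ± 0.09 and -0.44 ± 0.11 on day 4, and -0.57 ± 0.07, -0.94 ± 0.10 and -0.85 ± 0.12 on day 6. The tables place Neat1 on chromosome 19 at 5842296 to 5845480 on the minus strand, the span of its short transcript, and list 2 RefSeq transcripts for it. GENCODE M21 gives these as 3004 and 20771 bases, so it is not known over which length the RPKM was taken. The long transcript is known to lack a poly(A) tail, and the libraries were made with an mRNA kit.

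Of 16 other genes of the paraspeckle list tested, up to 2 were lower and up to 2 higher per comparison. Malat1 was counted in this list. The shares of all genes were 0.462% to 4.48% lower and 0.576% to 4.99% higher. At an unadjusted p under 0.05, 6 of 16 were lower and 2 higher at 200 µM on day 4. On day 6 at that dose, 7 were lower and 1 higher. The list's median log2 fold change was -0.18 at 200 µM on both days, against 0.01 and 0.00 for all genes tested. Sfpq fell at 150 and 200 µM on day 4, at 87.3 and 84.3 RPKM against 110 RPKM. Pspc1 was lower in 3 of 6, with 27.3 RPKM at 200 µM on day 4 against 42.3 RPKM. Nono, the partner of both, had 125 RPKM at 200 µM on day 4 against 147 RPKM and passed in 0 of 6, with an unadjusted p under 0.05 in 1. Malat1, a nuclear RNA encoded next to Neat1, rose at 200 µM on both days, at 97.2 RPKM against 78.4 RPKM on day 4 and 73.8 RPKM against 56.6 RPKM on day 6. At 150 µM on day 6, where Neat1 was at its lowest, Malat1 had 140 RPKM against 56.6 RPKM, with an adjusted p of 0.15 in the authors' deposited table and an implied standard error of 0.58.

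By dose, the fold change deepened at each step for 7 of the 10 genes on each day. All 10 were deeper at 200 µM than at 100 µM on both days, 6 of them by more than 2 combined standard errors on day 4 and 7 on day 6. The deepest value was at 150 µM for Neat1 on day 4 and for Neat1 and Igfbp4 on day 6. Combined standard errors here treat both doses as independent, although they share a control. Going by the fold change, Aass had the widest gap between 200 and 100 µM on day 6 after Cd80, -1.57 ± 0.18 and -2.01 ± 0.28 in log2 units. Glipr2, Adgrd1 and Igfbp4 had gaps within 2 combined standard errors on both days.

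By day, the fold change was deeper on day 6 for 6 of the 10 genes and shallower for 4 at each dose. The difference exceeded 2 combined standard errors in 0, 2 and 4 genes at 100, 150 and 200 µM. At 200 µM these were Cd80, by -1.22 ± 0.30 in log2 units, Aass by -0.67 ± 0.22, Neat1 by -0.41 ± 0.16 and Cemip2 by -0.32 ± 0.15, and all 4 were deeper on day 6. At 150 µM they were Aass, by -0.48 ± 0.19, and Inpp5d, by -0.40 ± 0.12. The rule used both days, so no test was made for the 10, and the mark of 2 combined standard errors only describes the size of their differences. For the other genes of the lists a two-sided z test of the day difference, adjusted by Benjamini-Hochberg over all genes, called 0 of 156 at each dose, and 5, 6 and 3 had an unadjusted p under 0.05. Over all genes it called 7 of 18734, 14 of 18784 and 9 of 18889, and 560, 591 and 369 had an unadjusted p under 0.05.

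**Figure D4:**
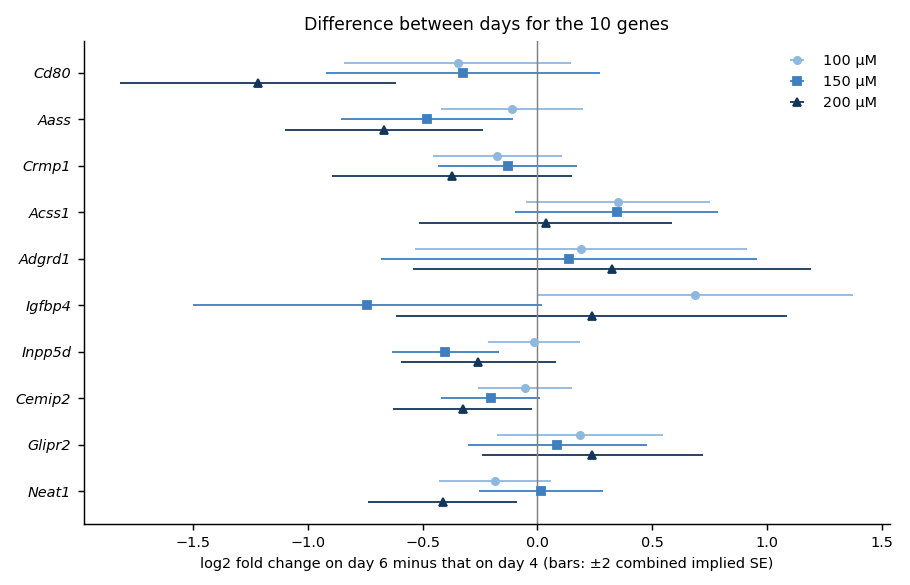
The log2 fold change on day 6 minus that on day 4 (horizontal axis) for each of the 10 genes (rows) at each dose, with bars of ± 2 combined implied standard errors. The bar of Cd80 at 200 µM lies farthest to the left, around -1.22, and 6 of the 30 bars lie wholly on the side of a deeper fall on day 6.

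The nearest gene on each side with a mean of at least 1 RPKM was read as a local comparison, 20 neighbours in all. Of these, 14 were called in 0 of 6 comparisons, 4 were lower in at least 1, 2 were higher in at least 1 and 0 were lower in all 6. In a single comparison 0.462% to 4.48% of all genes were lower and 0.576% to 4.99% higher. The share of all genes called in at least 1 of 6 was not counted, so the neighbour counts are only a description. Adprh, 6243 bases before the start of Cd80 and on the other strand, was lower in 5 of 6, with 57.3 RPKM at 200 µM on day 6 against 103 RPKM in control. Timmdc1, 1884 bases past the end of Cd80, was called in 0 of 6. The other lowered neighbours were Clta beside Glipr2 in 2 comparisons, and Entpd6 beside Acss1 and Smarce1 beside Igfbp4 in 1 each. Klf9 beside Cemip2 was higher in 1 and Malat1 beside Neat1 in 2.

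**Figure D5:**
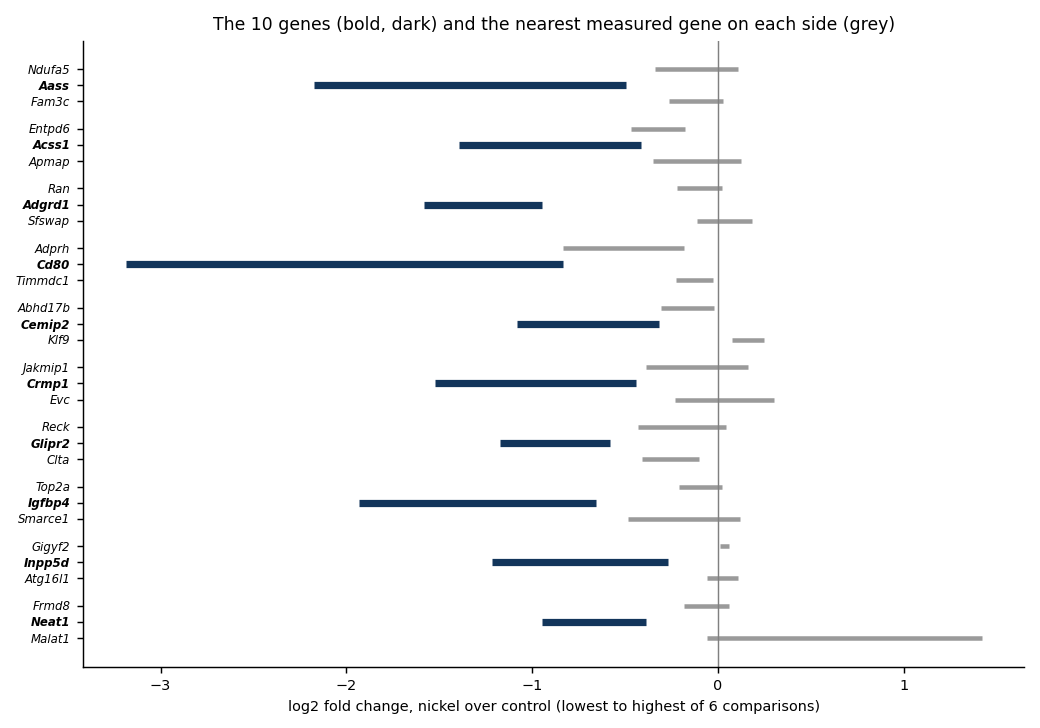
Range of the authors' log2 fold changes of nickel over control over the 6 comparisons (horizontal axis, lowest to highest) for each of the 10 genes (bold, dark bars) and for the nearest gene with at least 1 RPKM on each side (grey bars). Of the grey bars, Adprh beside Cd80 reaches farthest to the left, to -0.83, and Malat1 beside Neat1 farthest to the right, to 1.42.

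The genes most like each of the 10 were named by Pearson's r of log2(RPKM + 0.1) over the 8 group values, among 11308 genes with a mean of at least 1 RPKM. These values are a description over 8 groups, 6 of which got nickel. Cd80 was most like Slfn9, with r = 0.999, and Slfn9 is itself 1 of the 40 genes lowered throughout, at 0.864 RPKM at 200 µM on day 6 against 4.99 RPKM in control. Cemip2 was most like Lefty1, with r = 0.994, a Nodal antagonist at 38.5 RPKM against 125 RPKM there. Glipr2 was most like Myo10, an unconventional myosin, with r = 0.994, at 28.8 RPKM against 43.5 RPKM. Lefty1 and Myo10 also belong to the 40.

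Aass was most like Adprh, the neighbour of Cd80, with r = 0.994. Igfbp4 was most like Dll1, a Notch ligand, with r = 0.989, at 2.98 RPKM at 200 µM on day 6 against 5.16 RPKM in control. For Dll1 the level was also lowest at 150 µM on day 6, at 2.48 RPKM. Inpp5d was most like Bex4, with r = 0.997, although Bex4 differed less in size, at 53.9 RPKM against 64.9 RPKM, and was called in 0 of 6. Crmp1 was most like Ncoa5 (r = 0.995), Acss1 most like Gle1 (r = 0.994) and Adgrd1 most like Lars (r = 0.984). Neat1 had the lowest best match, Fbxw17 with r = 0.973, at 4.21 RPKM against 5.58 RPKM. Among the 45 pairs of the 10 genes, r ranged from 0.651 for Cd80 with Igfbp4 to 0.988 for Aass with Inpp5d, with a median of 0.870. Because the rule chose genes lower in every nickel group, positive values of r follow from it and are not read as a result.

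At the edge of the rule, the genes just inside were Adgrd1, with a largest adjusted p of 0.0479, and Igfbp4, with 0.0468. Just outside were Prrc1, with 0.0603, and 1700108F19Rik, with 0.0605, both at 100 µM on day 4 in the authors' deposited table. Prrc1 had 19.3 RPKM there against 24.7 RPKM in control, and 1700108F19Rik had 0.363 RPKM against 2.04 RPKM.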

How the data were processed

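RNA was sequenced from 16 libraries in 8 groups. The authors deposited 6 tables with an RPKM per group, the log2 fold change of nickel over control and its p-value, raw and adjusted, as named in the file headers. Per the file headers, each RPKM is 1 deposited value for a group of 2 libraries. STAR, DESeq2 and GRCm38 are named in the submitters' processing notes, but the sources used here give neither their versions and settings nor how reads were counted. Coordinates are those of the authors' deposited tables, with the start counted from 1.

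From these values, with Python (numpy 2.4.6, pandas 2.3.3, scipy 1.17.1), the standard error that a log2 fold change and its p-value imply was computed under a normal distribution. Genes listed with no change and a p-value of 1 count as untested. Calls are the authors' adjusted p under 0.05. Library depth was recovered from single-exon genes, whose low RPKM values lay on whole-read steps within 0.8% for 98.3 to 99.5% of values, taking the group RPKM as the mean of its 2 libraries. The day difference was tested by a two-sided z test over all genes. Since the files give no values per library, no count test, replicate block or left-out library could be run.

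The 10 genes, the gene lists and the motifs were chosen with earlier results of these data known. Named list genes were up to 4 per list with the smallest adjusted p past the threshold, plus 15 read whatever their values. Most alike genes were the 3 with the highest r and neighbours the nearest gene on each side, both with at least 1 RPKM on average and, for most alike genes, no symbol of a predicted gene. Of these 3, the text gives the first for each of the 10 genes. Matches to promoters used RefSeq (GRCm38.p6), and gene structures GENCODE M21. Alternatives tried were another threshold, other filters, a fold minimum, another pseudocount and centring.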

Additional observations from a re-analysis of the deposited data

How the results depend on the processing

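An adjusted p under 0.01 in place of 0.05 called 127, 769 and 864 genes at 100, 150 and 200 µM on day 4 and 299, 469 and 1047 on day 6, against 200, 1315, 1542, 567, 861 and 1901. A fold change of at least 1.5 as well called 110, 516 and 951 on day 4 and 200, 448 and 1240 on day 6. Under these settings 20 and 18 genes were lower in all 6 comparisons, against 40. Of the 10 genes, Aass, Cd80 and Glipr2 remained under the stricter p, 3 in all, and Adgrd1, Cd80 and Igfbp4 under the fold minimum, also 3. Adjusting over all genes with a p-value kept 8, without Adgrd1 and Igfbp4, and adjusting over genes with at least 1 RPKM kept 10. The other list genes called were 16 at 200 µM on day 4, and 1 and 3 at 100 and 150 µM on day 6, under the stricter p, against 26, 4 and 12. With the fold minimum they were 5 at 150 µM on day 4 and 0 at 100 µM on day 6, against 15 and 4. The day test on list genes gave 5, 6 and 3 at an unadjusted p under 0.05 for 100, 150 and 200 µM, against 0 adjusted. In these settings fewer or more genes pass by construction.

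All 60 fold changes of the 10 genes stayed negative as log2 ratios of RPKM and after centring on the median. The choice of genes left little room for another outcome, so this is not read as a result. With a pseudocount of 1, 17 of 60 moved by more than their error, chiefly those of Adgrd1, Igfbp4 and Cd80. Neat1, the most abundant of the 10, moved at 150 µM on day 6 with both pseudocounts. Its log2 ratio there was -1.05 with 0.1 and -1.04 with 1, against the authors' -0.94. Of the 30 most alike names, 23 were kept with a pseudocount of 1 and 28 with a lower filter. No paired analysis was possible because the tables give 1 value per group, and leaving out each replicate was not run for the same reason. The depth behind Cd80 and Adgrd1 at 200 µM limits how finely their lowest levels can be read.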
